A study of Mus musculus with 2 samples.

Results

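Transcripts annotated with the biotype nonsense_mediated_decay (NMD) were described in 2 total RNA-seq libraries of the mouse left cerebral cortex. The members were all NMD transcripts whose gene also has a transcript annotated as protein coding: 7091 transcripts of 4491 genes, among 141767 annotated transcripts (5.002%). Both libraries came from female mice of the strain B6CASTF1/J, first-generation hybrids of C57BL/6J and the wild-derived strain CAST/EiJ, at postnatal day 4, with no treatment or transgene. The labels number the animals 03 and 04 but give both samples 1 shared donor identifier, so the labels do not settle whether replicates 1 and 2 are unrelated animals. There was 1 group of 2 libraries and no contrast, so no test between groups was made; an exact two-sided sign-flip test over 2 libraries cannot go below p = 0.5.

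NMD is a surveillance pathway that degrades mRNAs on which the ribosome stops too early. In mammals a stop codon that lies well upstream of the last exon-exon junction leaves an exon junction complex, a protein mark of splicing, on the mRNA after the first rounds of translation, and UPF1 with the SMG proteins then starts decay. Many genes of splicing regulators carry a "poison" exon, a cassette exon with an in-frame stop, and through it lower their own productive mRNA. In neurons, NMD and regulated poison exons are known to set the level of several RNA-binding and synaptic proteins. The annotated biotype records the predicted fate of a transcript from its structure, not a measured half-life.

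Each library had a pair of transcript tables, made by separate quantifiers from the same reads. The first held expected counts summing to 29407462 and 28944699 in replicates 1 and 2, and the second held estimated counts summing to 29886335 and 29926132. Members held 1.70 and 1.74% of the counts in the first table and 2.02 and 2.06% in the second. Levels are in TPM, a unit which divides reads by transcript length and scales each library to the same total, and so allows transcripts to be compared. The TPM scales differed. Short non-coding entries of the class misc_RNA held 30.5 and 29.2% of the first table's TPM and under 0.01% of the second's. Protein coding transcripts detected in both tables lay 0.47 higher on the log2(TPM + 1) scale in the second (median of 19196 transcripts), so shares of a gene, which have no scale, are given first below. The cortical markers Neurod6 and Slc17a7 were present: Neurod6 stood at 120 and 112 TPM and Slc17a7 at 140 and 145 TPM, both in the first table. Of 5 genes that mark other brain regions or the spinal cord, Hoxb3 and Hoxc6 were listed at 0, Pax7 had 0.04 and 0.01 TPM, En2 had 0.24 TPM and 0, and Tcf7l2 had 8.32 and 5.92 TPM.

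The stop codons that define these transcripts arose in a few recurring ways, shown here by members that the results below turn on. Sequences are those of the GENCODE M21 transcripts (reference strain, assembly mm10), read 5′ to 3′ on the transcript in lower case, with the stop codon in capitals. The first set runs from the first base of a cassette exon, one that every coding transcript of the gene skips, to the stop codon inside it. The stops lie at chr16:22259181-22259183 for Tra2b-206 (minus strand), chr17:29039485-29039487 for Srsf3-201 (plus), chr1:136173569-136173571 for Kif21b-204 (plus), chr14:18277924-18277926 for Nkiras1-201 (plus), chr13:114387442-114387444 for Ndufs4-204 (minus), chr14:29970810-29970812 for Selenok-203 (plus) and chr12:74162067-74162069 for Syt16-201 (plus).
Tra2b-206: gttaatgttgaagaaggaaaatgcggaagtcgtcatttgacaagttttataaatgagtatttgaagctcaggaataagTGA
Srsf3-201: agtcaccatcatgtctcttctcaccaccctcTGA
Kif21b-204: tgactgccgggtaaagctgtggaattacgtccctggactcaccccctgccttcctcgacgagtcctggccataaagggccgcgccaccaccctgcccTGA
Nkiras1-201: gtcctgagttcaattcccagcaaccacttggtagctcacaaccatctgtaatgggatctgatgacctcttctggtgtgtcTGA
Ndufs4-204: tgcgttccagtctTAA
Selenok-203: gttcctgcccTAG
Syt16-201: ctgagaagtgtTGA
These 7 exons end the reading frame after 13 to 100 bases, and their full lengths run from 50 bases in Ndufs4-204 to 821 in Syt16-201. The stop of Tra2b-206 comes after 38 codons, early in the protein, whereas that of Kif21b-204 comes after 1639 codons, near the end of a long motor protein.

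In the second set the stop codon lies in bases that coding transcripts also translate, but in another frame. The last 60 bases up to and including the stop are shown, with stops at chr9:120130192-120130194 for Rpsa-206 (plus strand), chr11:6418241-6418243 for Ppia-201 (plus), chr12:73179242-73179244 for Mnat1-203 (plus) and chr4:148620716-148620718 for Tardbp-228 (minus).
Rpsa-206: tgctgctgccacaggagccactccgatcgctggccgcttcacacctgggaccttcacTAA
Ppia-201: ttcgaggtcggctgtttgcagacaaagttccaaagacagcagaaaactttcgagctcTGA
Mnat1-203: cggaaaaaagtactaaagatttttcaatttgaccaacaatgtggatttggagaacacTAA
Tardbp-228: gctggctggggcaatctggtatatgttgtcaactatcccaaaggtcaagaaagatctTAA
Read against the frame of a coding transcript, the stops of Rpsa-206, Mnat1-203 and Tardbp-228 sat at an offset of 2 bases and that of Ppia-201 at an offset of 1 base. The open reading frames ended after 133, 40, 93 and 84 codons in Rpsa-206, Ppia-201, Mnat1-203 and Tardbp-228.

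In the third set the stop was read from a retained intron (Ddx5-208, stop at chr11:106783954-106783956, minus strand) or was the same as in an annotated coding transcript, with an added junction downstream (Cbx1-204 at chr11:96802824-96802826, plus, and Atp2a2-203 at chr5:122457151-122457153, minus). The last 60 bases up to the stop are shown.
Ddx5-208: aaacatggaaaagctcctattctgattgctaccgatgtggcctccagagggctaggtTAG
Cbx1-204: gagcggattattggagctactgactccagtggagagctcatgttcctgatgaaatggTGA
Atp2a2-203: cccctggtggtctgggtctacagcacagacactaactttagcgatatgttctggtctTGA
In Ddx5-208 the reading frame runs 406 codons before the stop, and in Atp2a2-203 it runs 1044 codons to the stop that a coding transcript also uses.

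Over all members the annotated structures followed the rule by which the biotype is assigned. Of the 7089 members with an annotated stop codon, 7051 (99.5%) had it more than 50 bases upstream of the last exon-exon junction, against 0.998% of 12322 protein coding transcripts of the same genes. This restates the annotation and is no finding of these libraries. The median distance was 332 bases (quartiles 159 and 734) with a median of 3 junctions after the stop, and 1709 members (24.1%) had exactly 1. Members were shorter than the coding transcripts of their genes, with a median length of 1245 against 1838 bases and 7 against 8 exons. A start codon was annotated for 5038 members, and 97.4% of these shared it with a coding transcript of the gene.

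By the place of the stop, 4249 members had it in bases that are exonic in a coding transcript, 2335 in bases that are intronic in all of them, and 505 used the stop of a coding transcript. Among these 505, 365 (72.3%) shared it with the coding transcript of highest TPM in the gene. Of 4138 members with the stop in the coding part of a coding transcript, 2477 (59.9%) skipped an internal exon of a coding transcript. Of the 4124 that could be placed in a coding frame, 2010 were at an offset of 1 base and 2052 at an offset of 2, with 62 in frame. The intronic stops comprised 1326 in cassette exons, 789 in lengthened exons, 111 in retained introns, 91 in exons outside the coding transcripts and 18 in terminal exons. Cassette exons with the stop had a median length of 116 bases, and 36.2% of them had a length that is a multiple of 3. The stop was TGA in 57.9% of members, TAA in 22.4% and TAG in 19.7%, and in 52.3, 24.7 and 23.0% of coding transcripts of the same genes.

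What a quantifier can tell of a member depends on the sequence it holds alone. A junction found in no other transcript of the gene was present in 83.3% of members, but 4036 held no base of their own and 915 had neither. The annotation marks 2064 members (29.1%) as incomplete at an end. Each of the 4491 genes held from 1 to 18 members: 2911 had 1, 992 had 2, 364 had 3 and 224 had more.

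Members made up a modest part of the transcript output of their genes. Their summed level was 14533 and 14895 TPM in the first table, which was 10.4 and 10.2% of the TPM of their genes (10.3% ± 0.103, SD, n = 2), and 29260 and 29516 TPM in the second, which was 12.6 and 12.5% (12.6% ± 0.0797). Taken over expected counts instead of TPM, which does not correct for their shorter length, the share was 7.24% ± 0.0100 (SD, n = 2). Protein coding transcripts of the same genes held 72.8 and 70.6% of the first table's TPM, retained-intron transcripts 12.9 and 14.96% and transcripts of the class processed_transcript 3.88 and 4.18%. From replicate 1 to replicate 2 the summed TPM of members differed by a factor of 1.02 and that of coding transcripts by 1.01, against 1.21 for retained-intron transcripts of the same genes. In bulk tissue, a lower level of a transcript cannot be divided between fewer cells of a type and less RNA per cell, and synthesis cannot be told apart from decay.

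A TPM of 1 or more in both libraries, called detected here, was reached by 1658 members (23.4%) in the first table, where 26.8% of all annotated transcripts reached it. The second table detected 2459 members (34.7%), where the share of all transcripts was 32.2%. Both tables detected 1335 members (18.8%) of 1152 genes, against 22.4% of all transcripts; these were 80.5% of the members detected in the first table and 54.3% of those in the second. For coding transcripts of the same genes the corresponding overlaps were 85.1 and 75.5%. The median level of detected members was 3.27 TPM by the first table and 4.47 TPM by the second. By the first table, 274 of the 1658 detected members had a mean of 10 TPM or more, beside 2404 of 6731 detected coding transcripts of the same genes. A mean of 100 TPM or more was reached by 9 members, while 2408 of all 7091 members were listed at 0 in both libraries. For these last counts no share over all transcripts was computed.

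Gene by gene, the NMD share was small in most genes and large in a few. By the first, 3680 member genes reached a gene TPM of 1 in both libraries, and their median NMD share was 4.89 and 4.81% (quartiles of the library means 0.888 and 15.5%). For the second, 3822 genes had a median of 8.04 and 8.08% (quartiles 1.76 and 20.7%). Of 3677 genes measured in both tables, 867 (23.6%) had an NMD share of at least 10% in both libraries of both tables, 324 (8.81%) at least 25% and 60 (1.63%) at least 50%. Across genes the share had a Pearson r of 0.879 between libraries of the first table, 0.881 between those of the second, and 0.731 between tables (Spearman rho 0.691), with genes as points that share libraries and reads. The SD of the difference was 7.82 percentage points between libraries in the first table, 8.61 in the second and 11.7 between tables. The shares differed more between tables than between libraries.

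**Figure D1:**
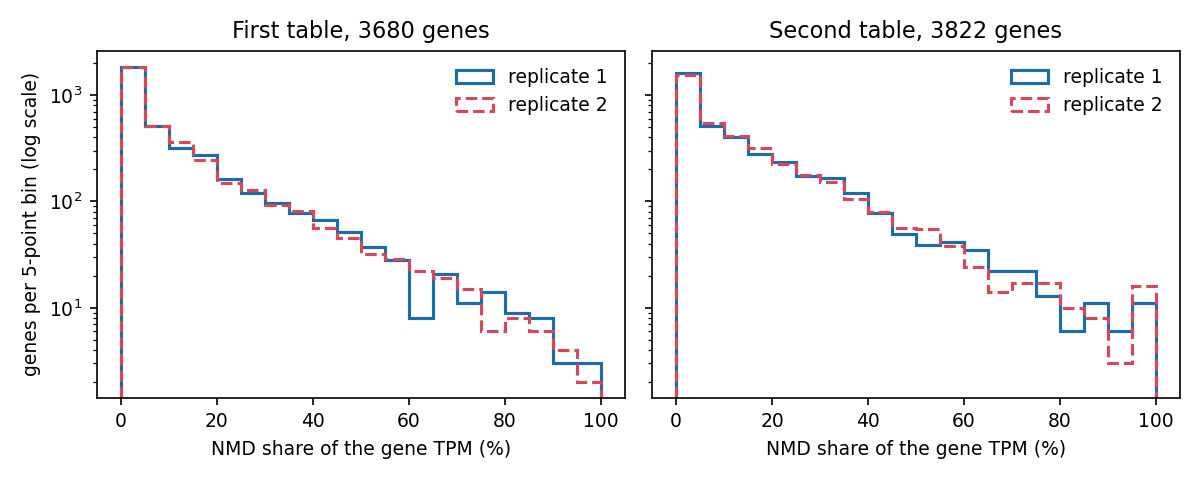
Histograms of the NMD share of the gene TPM (x axis, percent, bins of 5 points) against the number of genes per bin (y axis, log scale), for the first table (with 3680 genes, left) and the second (with 3822 genes, right), with replicate 1 as a solid and replicate 2 as a dashed line. The libraries follow each other closely in both panels, and counts fall from left to right, with medians near 5% on the left and 8% on the right.

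The median share was lower in the most strongly expressed genes. In the first table the median share was 6.59 and 6.35% in the 536 genes at 1 to 5 TPM, 6.38 and 6.42% in 1261 genes at 5 to 20 TPM, 3.94 and 3.76% in 1611 genes at 20 to 100 TPM and 2.54 and 2.66% in 272 genes at 100 TPM or more. The second table gave the same order of its lowest and highest bins, with 9.86 and 10.6% in the lowest and 4.48 and 5.41% in the highest. The part of genes with a large NMD share varied less. At 100 TPM or more, 57 of 272 genes (20.96%) passed 10% in all 4 measurements, against 24.3, 26.3 and 21.6% in the lower bins, lowest first. By the first table alone it was 28.3%, against 28.5, 32.2 and 26.8%.

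Of members in genes at a TPM of at least 1, 1025 of 5970 (17.2%) held at least 10% of their gene in both libraries of the first table, against 31.2% of all transcripts of genes with several transcripts. In the second table it was 1413 of 6173 (22.9%), against 33.8%. Both tables and both libraries placed 735 of 5966 members (12.3%) at or above 10%, against 24.3%, in 699 genes. A member was the most abundant transcript of its gene in both libraries in 199 genes of the first table (5.41% of member genes) and 249 of the second (6.51%). In both tables it was the most abundant in 102 of the 3677 member genes measured in both. Counted per member and not per gene, this is 1.71% of the 5966 members, against 10.2% of all transcripts of genes with several transcripts. Rates per transcript, here and at 10% above, depend on how many transcripts a gene has, which was not matched. Among these 102, the stop was exonic in 66, intronic in 26 and shared with a coding transcript in 10, while 80 had a junction of their own and 15 had neither a base nor a junction of their own.

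The most abundant members belonged to highly expressed housekeeping genes. Ppia-201, from the gene of the prolyl isomerase cyclophilin A, had 965 and 908 TPM in the first table and 1158 and 997 TPM in the second. It held 86.1 and 84.7% of its gene in the first table and 46.3 and 43.0% in the second. Rpsa-206, from the gene of a ribosomal protein of the small subunit, followed with 428 and 399 TPM in the first table and 257 and 225 TPM in the second. Its share of the gene was 81.5 and 80.8% against 35.5 and 33.9%. Replicate 1 was the higher library for both members in both tables, by less than the difference between the tables' shares. Ppia, Rpsa and other ribosomal protein genes are known for near-identical processed copies in the genome; whether reads were shared with these was not tested, and the levels are given as uncertain.

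Among the 15 most abundant members detected in all 4 measurements, others came from genes of RNA binding, transport and signalling. Hnrnpu-206, from a gene for a nuclear RNA-binding protein, had 122 and 124 TPM in the first table and 143 and 144 TPM in the second. Atp2a2-203, from the gene of the endoplasmic reticulum calcium pump SERCA2, had 109 and 110 TPM and then 112 and 107 TPM. Kif21b-204, from the gene of a neuronal kinesin, had 98.7 and 108 TPM and then 155 and 154 TPM. The libraries of these 3 members lay close together within each table. Kif21b-204 held 65.9 and 68.1% of its gene in the first table and 73.4 and 64.0% in the second. Both thus placed more than 60% of the gene on the transcript with the 180-base cassette exon, printed above up to its stop. Others showed how far the tables can part: Rab11b-204, from the gene of a small GTPase of recycling endosomes, had 82.3 and 83.4 TPM in the first table and 11.1 and 11.7 TPM in the second. Eif4a2-210, from the gene of an mRNA helicase of translation initiation, had 134 and 115 TPM and then 37.3 and 9.36 TPM, with the libraries apart as well in the second table.

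**Figure D2:**
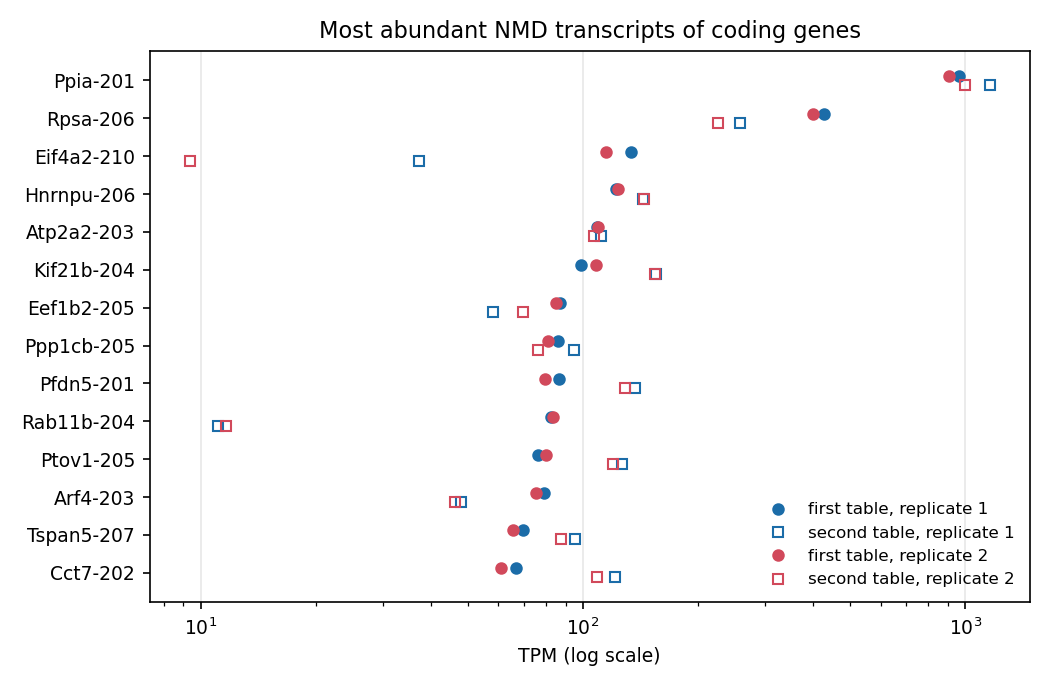
TPM (x axis, log scale) of 14 of the 15 most abundant members (y axis) in each library, with filled circles for the first table, open squares for the second, blue for replicate 1 and red for replicate 2. Ppia-201 stands apart near 1000 TPM, and Eif4a2-210 and Rab11b-204 lie much lower in the second table than in the first.

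Another set of members carried most of the TPM of a less abundant gene. Syt16-201, from a synaptotagmin gene, had 43.8 and 42.6 TPM in the first table and 62.5 and 58.4 TPM in the second, and held 86.8 and 80.3% of the gene and then 89.7 and 84.8%. Mnat1-203, from the gene of the assembly factor of the CDK-activating kinase, held 87.8 and 85.2% in the first table and 85.4 and 82.5% in the second, at 6.96 and 6.97 TPM in the first. Mmaa-202, from a gene of vitamin B12 metabolism, held 84.8 and 82.3% and then 86.8 and 83.8%. For these 3 genes every measurement put more than 80% of the TPM on a transcript annotated for decay. Mrpl32-201, from a mitochondrial ribosomal protein gene, held 72.6 and 78.3% and then 72.4 and 78.5%. Nkiras1-201, from a gene for an inhibitor of NF-kappa-B signalling, held 72.6 and 72.6% and then 66.9 and 67.2%. Cbx1-204, from the gene of the heterochromatin protein HP1 beta, held 69.3 and 68.1% and then 69.3 and 68.9%, and it holds 1385 bases found in no other transcript of the gene. Mnat1-203, Mrpl32-201 and Nkiras1-201 have no base of their own and rest on a single junction each. TPM gives a short transcript more weight than its reads do, and by expected counts the NMD share was lower in several of these genes. It was 40.4 and 41.0% in Mrpl32, 44.2 and 46.9% in Nkiras1 and 61.4 and 57.1% in Mmaa. In Mnat1 it was 76.5 and 70.9%, in Syt16 84.0 and 82.2% and in Cbx1 81.0 and 80.2%.

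Pooled over the TPM of all member genes, stops in exonic bases held the largest part: 6.69% ± 0.154 (SD, n = 2) in the first table, against 2.57% ± 0.0660 for intronic stops and 1.02% ± 0.0140 for stops shared with a coding transcript. In the second table the shares were 7.05% ± 0.152, 4.56% ± 0.0634 and 0.970% ± 0.00798. The order of the classes was the same in both tables and in each library, and the SD between libraries was far below the distance between classes. The order also followed the number of members: 4249 exonic, 2335 intronic and 505 shared. Pooled only over genes with a member of the class, the shares in that sequence were 10.22, 5.95 and 10.32% in the first table. In the second table they were 10.78, 10.48 and 10.45%. On that basis exonic and shared stops lay close together in both tables, and intronic stops were clearly lower only in the first. The intronic class differed most between tables. Detection in both tables was reached by 17.5% of members with exonic stops, 21.1% with intronic stops and 19.6% with a shared stop. Within the intronic class it was 18.8% for cassette exons, 22.2% for lengthened exons and 42.3% for retained introns (47 of 111). Beside these, it was 22.4% of all annotated transcripts. Among transcripts of the member genes it was 35.6% of those annotated as retained introns and 35.4% of coding ones, so a high rate was not particular to members with a retained intron.

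**Figure D3:**
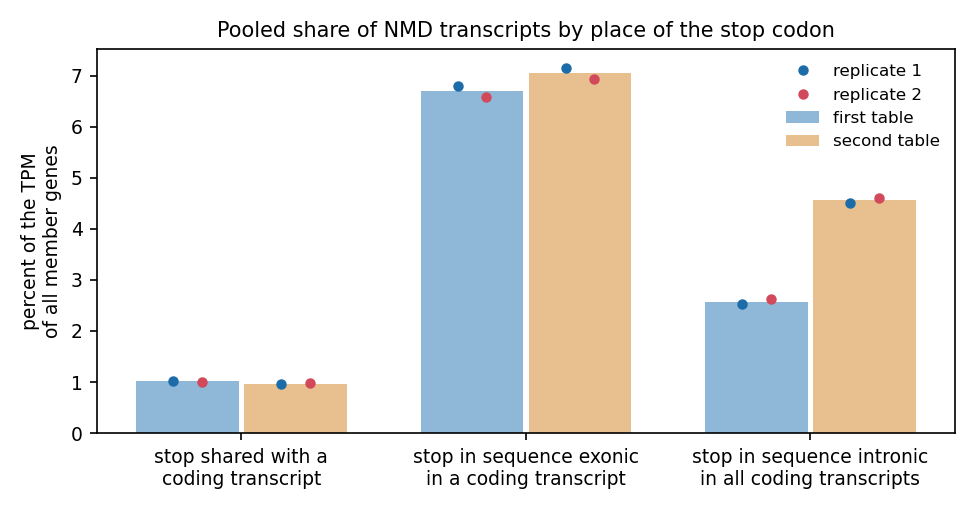
Percent of the TPM of all member genes (y axis) held by members of each stop class (x axis), as means over the libraries (bars: blue for the first table, orange for the second) with each library as a point. Stops in exonic bases, the class with the most members, hold the largest share in both tables (6.69 and 7.05%). Those in intronic bases hold 2.57% by the first table and 4.56% by the second.

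In genes with several members, the level of the top member was set against the sum of all members. With 2 members, as in 992 genes, the top one holds the larger part by definition, and libraries more easily share it. No such value was computed for other transcripts, so the figures are descriptive. For 1084 genes with at least 2 members and some member TPM in all 4 measurements, the top member held a median of 85.1 and 83.8% of the summed member TPM in the first table and 82.4 and 79.7% in the second. The top member was the same in both libraries in 831 of these genes (76.7%) by the first table and 854 (78.8%) by the second, and the same in all 4 measurements in 525 (48.4%). Of 1580 genes with at least 2 members, 261 (16.5%) had all of them at a single stop position. Slc4a7, a bicarbonate transporter gene with 18 members, all with exonic stops, had low member levels. Its highest member by mean TPM, Slc4a7-215, had 1.34 and 2.55 TPM in the first table and 2.44 and 2.74 TPM in the second. The top member was not the same throughout: Slc4a7-218 was higher in replicate 1 of the first table (2.12 TPM) and Slc4a7-205 in replicate 2 of the second (3.03 TPM).

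Splicing regulators of the SR family bind exonic enhancers and promote exon inclusion. Of 21 genes listed as SR proteins and relatives, 18 (85.7%) had a member, against 20.5% of 21901 coding genes. Of those 18, 7 (38.9%) had an NMD share of at least 10% in all 4 measurements: Srek1, Srsf3, Srsf4, Srsf6, Srsf9, Tra2a and Tra2b. Over all 3677 member genes this was 23.6%. The list's median share was 6.68 and 7.59% in the first table and 8.84 and 8.56% in the second, against 4.89 and 4.81% and 8.04 and 8.08% over all member genes. Tra2b-206, whose cassette exon is printed first above up to its stop, had 33.2 and 26.3 TPM in the first table and 54.8 and 43.5 TPM in the second. It held 43.0 and 34.1% of Tra2b, a splicing activator, in the first table and 48.4 and 39.2% in the second; replicate 1 was higher in both tables. Srsf6-201 held 32.7 and 29.9% of Srsf6 and then 35.8 and 33.7%. Srsf3-201 held 15.9 and 18.7% of Srsf3 and then 21.9 and 24.3%, at 19.6 and 20.5 TPM in the first table. Other SR genes were low, such as Srsf7 with an NMD share of 3.37 and 3.02% and then 3.88 and 3.54%, and Srsf5 at 0 by the first table and 1.34 and 1.501% by the second.

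The kinases that phosphorylate SR proteins had the highest median of the lists, 19.4 and 16.8% in the first table and 17.8 and 14.6% in the second, over 7 genes of 10 listed. Of the 7, 4 (57.1%) passed 10% in all measurements: Clk1, Prpf4b, Srpk1 and Srpk2. Prpf4b, a kinase of the spliceosome, had an NMD share of 53.0 and 51.3% and then 56.9 and 47.7% over its 3 members. Srpk2, a cytoplasmic SR kinase, had 48.9 and 52.3% and then 37.4 and 34.9%, all from Srpk2-204. Clk1, a nuclear SR kinase, had 29.0 and 29.8% and then 27.4 and 25.5%. Clk3 gave at most 4.02% in any measurement, so the family was not uniform.

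The hnRNP and PTB proteins, which often repress exons, had members in 16 of 29 listed genes, and 5 of the 16 (31.3%) passed 10% throughout: Hnrnpa1, Hnrnpdl, Hnrnpll, Hnrnpu and Syncrip. Hnrnpdl had an NMD share of 26.1 and 23.9% in the first table and 34.1 and 27.3% in the second. Hnrnpa1 had 23.8 and 28.5% and then 24.3 and 29.2%. Hnrnpu showed a difference between tables, with 68.3 and 62.7% and then 41.1 and 38.4%, and the largest part of the gap was Hnrnpu-209, a transcript of 351 bases with 44.0 and 44.2 TPM in the first table but listed at 0 in the other. Ptbp2, the neuronal PTB protein, had 17.4 and 16.7% and then 5.30 and 9.99%, and Ptbp1 had 6.06 and 6.10% and then 11.9 and 10.4%.

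RNA-binding proteins of neurons and of neurological disease had members in 16 of 40 genes, and 7 of the 16 (43.8%) passed 10% throughout: Celf2, Khdrbs1, Khdrbs3, Qk, Rbm39, Tardbp and Tial1. Tardbp encodes TDP-43, an RNA-binding protein of motor neuron disease that is known to limit its own mRNA through splicing in its last exon. Its 10 members held 34.5 and 36.8% of the gene in the first table and 33.5 and 32.7% in the second. Tardbp-228, whose frame-shifted stop is printed above, had 28.5 and 30.4 TPM and then 45.6 and 49.2 TPM. Tardbp-208, which uses a coding transcript's stop, had 13.99 and 16.0 TPM and then 25.03 and 26.9 TPM. The other 8 members of Tardbp stood below 2 TPM in every measurement. Qk, a regulator of splicing in glia, had 17.5 and 14.3% and then 19.7 and 15.7%, all from Qk-202.

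The core spliceosome had members in 16 of 36 genes (44.4%), with Ddx5 and Sf1 (12.5%) past 10% throughout. Ddx5, an RNA helicase, had 19.8 and 19.3% and then 14.5 and 16.0%. Its retained-intron member Ddx5-208 had 52.9 and 65.1 TPM in the first table and 90.9 and 106 TPM in the second, higher in replicate 2 in both. Factors of NMD and of the exon junction complex, several of which are known NMD targets through their own mRNAs, had members in 6 of 29 genes (20.7%, beside 20.5% of coding genes), and none of the 6 passed 10% throughout. Smg5 had 7.14 and 5.63% and then 6.15 and 4.09%. Magohb, a core exon junction protein, differed by table, with 8.40 and 14.8% in the first and 52.5 and 41.7% in the second.

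Genes of neuronal function were set beside all coding genes, of which 20.5% had a member. Of 43 synapse genes 10 (23.3%) had one, near the 20.5% of coding genes. The presynaptic adhesion gene Nrxn3 was among the 20% of these 10 genes that passed 10% throughout, with 14.3 and 13.4% and then 13.7 and 12.3%. Over all member genes 23.6% passed. Dlg4, the PSD-95 gene, had 1.03 and 1.68% and then 1.87 and 2.44%. Of 36 channel and receptor genes 10 (27.8%) had a member. Among these, Gabra2 alone (10%) was past 10% throughout, at 44.2 and 43.3% and then 54.8 and 50.3%. It encodes a GABA-A receptor subunit. The AMPA receptor gene Gria2 had 1.90 and 3.06% and then 4.06 and 5.85%. Cytoskeleton genes had a member in 8 of 42 (19.0%). They had the lowest medians in the first table, 0.223 and 0.0669%, with none of the 8 genes past 10% throughout.

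The lists of this paragraph are set beside 20.5% of coding genes with a member and 23.6% of member genes that passed 10% throughout. Among chromatin regulators, members occurred in 15 of 42 genes (35.7%). Of the 15, only Ezh2 (6.67%), the methyltransferase of Polycomb complex 2, passed, with 17.4 and 14.4% and then 24.8 and 20.6%. Hdac5, a histone deacetylase, missed it in 1 measurement, with 16.3 and 8.88% and then 19.0 and 13.99%. Respiratory chain genes had members in 10 of 37 genes (27.0%), and of the 10, Ndufa10 and Ndufs4 (20%) passed. Ndufs4, a subunit of complex I, had 75.5 and 73.1% and then 84.2 and 83.6%. Its member with the 50-base cassette exon, printed above up to its stop, is Ndufs4-204, which had 46.3 and 35.7 TPM and then 85.9 and 78.6 TPM. The translation factors Eef1b2 and Pabpc4 (22.2% of 9 genes) and the selenoprotein gene Selenok (14.3% of 7 polyamine and selenoprotein genes) passed as well. The share of Eef1b2 came from different members by table. Eef1b2-201 had 0.04 and 0.48 TPM and then 177 and 136 TPM, and Eef1b2-208 had 32.0 and 31.9 TPM and then 0.633 TPM and 0. Eef1b2-205 was present in both, with 87.2 and 85.0 TPM and then 58.3 and 69.6 TPM. Selenok-203 held 51.9 and 43.7% of Selenok and then 76.5 and 70.4%. The stress response genes had 1 gene with a member, Hspa5, with 5.76 and 5.36% and then 0.444% and 0. Ribosomal protein genes had members in 19 of 85 (22.4%), and 21.1% of the 19 passed, with Rpl12, Rpl27a and Rpsa among them. The list's median was 2.35 and 2.27% and then 0.891 and 0.868%.

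**Figure D4:**
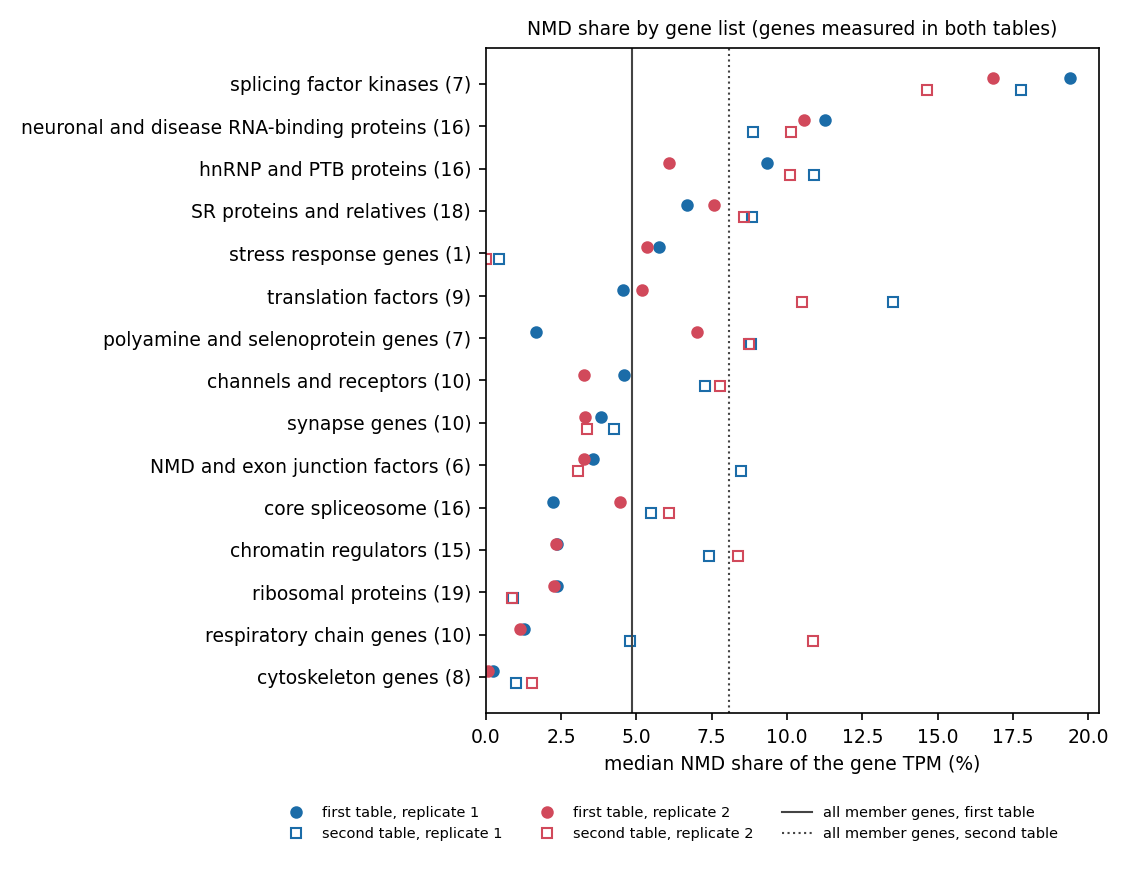
Median NMD share of the gene TPM (x axis, percent) for 15 gene lists (y axis, with the number of genes measured in both tables), as filled circles for the first table and open squares for the second, blue for replicate 1 and red for replicate 2. Vertical lines mark the medians of all member genes; the splicing factor kinases lie to the right of both lines in all 4 measurements and the cytoskeleton genes to the left.

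The tables parted most often for short members. Of 2782 members detected in either table, 1036 (37.2%) differed between tables by at least 2-fold beyond the general shift of 0.47, against 28.7% of all transcripts detected in either table and 30.8% of coding transcripts of the same genes. Of the 2782, 723 (26.0%) were higher in the second table, against 16.2% of all transcripts detected in either table, and 313 (11.3%) were lower, against 12.5%. The share apart was 66.3% of members under 600 bases, 47.6% from 600 to under 1000 bases, 32.5% from 1000 to under 2000 bases and 22.7% from 2000 bases. It was 43.5% of members without a base of their own and 30.8% of those with one, and 45.1% of incomplete against 34.3% of complete models. Length, completeness and own bases go together among members, and their separate parts were not tested.

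Some members were near 0 in 1 table and abundant in the other. Ndufa3-204, 343 bases long and from a complex I gene, had 187 and 184 TPM in the first table, where it held 93.2 and 93.3% of the gene, and 0 in the second. Tbca-203, from the gene of a tubulin folding cofactor, was listed at 0 in the first table and had 204 and 207 TPM in the second, with 100% of the gene. Skp1a-204, from the gene of a ubiquitin ligase subunit, was at 0 and then at 245 and 213 TPM. Rpl37a-203 had 0.240 and 0.510 TPM and then 273 and 276 TPM, where it held 27.5 and 29.8% of Rpl37a. In each of these 4 members the libraries concurred within a table, so the agreement of libraries says nothing about which table is nearer to the RNA.

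**Figure D5:**
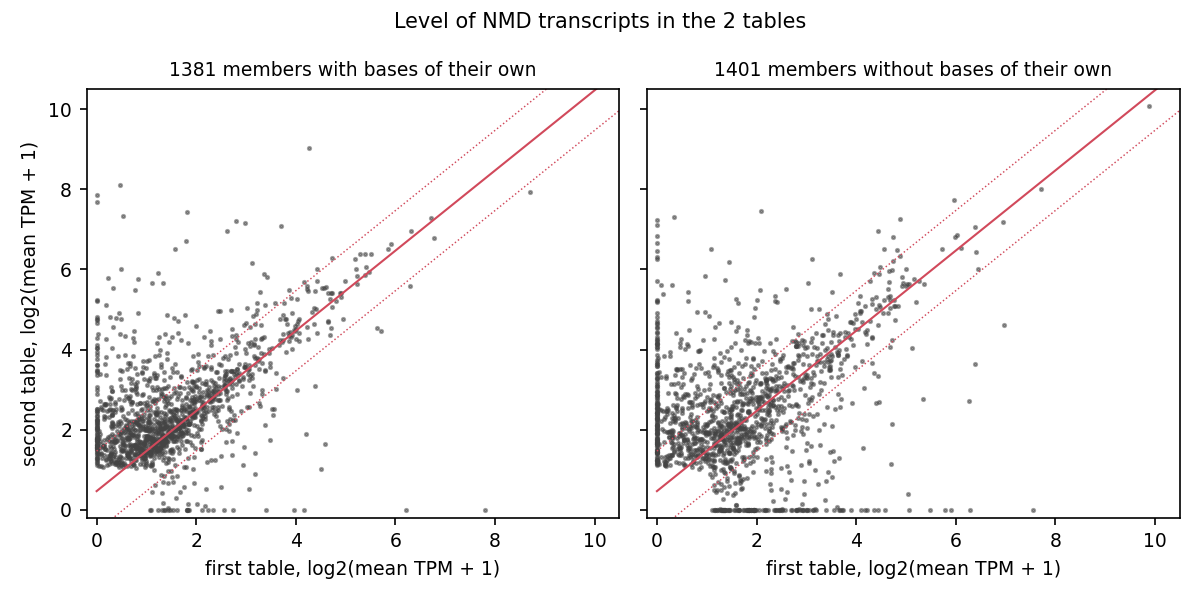
Mean level over the libraries in the second table against the first (both axes log2(mean TPM + 1)) for 1381 members with bases of their own (left) and 1401 without (right), each detected in at least 1 table. The red line is the shift of coding transcripts and the dotted lines lie 2-fold to either side; 30.8% of members lie outside them on the left and 43.5% on the right, and points along an axis are listed at or near 0 in 1 table.

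Between the libraries most detected members differed little. The SD of the log2(TPM + 1) ratio of replicate 2 over replicate 1 was 0.44 over the 1658 detected members, 0.37 over detected coding transcripts of the same genes and 0.38 over retained-intron transcripts, with medians of 0.06, 0.05 and 0.23. A ratio of at least 2-fold was seen for 50 members (3.02%), against 2.42% of all detected transcripts. Of the 50, 34 were higher in replicate 2, against 1.51%, and 16 lower, against 0.907%. With a TPM of 1 required in both libraries and 1 added to each, the 422 detected members with a mean under 2 TPM could not reach this ratio. Levels were not matched between members and all transcripts. By the second, 166 of 2459 members (6.75%) were 2-fold apart, against 4.64%. The first table also gives a TPM interval for each transcript, whose level is not given in the sources used here. The interval need not hold the listed TPM: for Ppia-201 in replicate 1 it ran from 911 to 951, beside a listed 965 TPM. The intervals of the libraries lay apart for 54 members (3.26%), against 8.09% of all detected transcripts. Only 9 of the 50 members that were 2-fold apart also had their intervals apart, and the median posterior SD of the 50 was 0.556 of their count. A posterior SD of 0.241 of the count was the median over all detected members, against 0.136 for coding transcripts of the same genes.

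Of the 50, 32 were detected in the second table and 5 of these differed there at least 2-fold in the same direction. These 5 are named after their values were seen. Ntmt1-207, from the gene of an N-terminal methyltransferase, had 11.2 and 3.92 TPM in the first table and 12.5 and 4.92 TPM in the second. Ip6k1-202, from an inositol phosphate kinase gene, had 8.05 and 2.87 TPM and then 15.7 and 5.65 TPM. Replicate 2 was lower for both in both tables. Idh3b-204, from a gene of the citric acid cycle, had 3.91 and 11.6 TPM and then 1.34 and 6.87 TPM. St6galnac6-213, from a sialyltransferase gene, had 1.56 and 5.84 TPM and then 1.82 and 7.12 TPM, and Snhg11-205, from a small nucleolar RNA host gene with an annotated coding transcript, had 1.19 and 6.02 TPM and then 1.87 and 6.67 TPM. Replicate 2 was higher for these. By contrast, Csnk2a2-205, from a casein kinase gene, had 10.2 and 1.13 TPM in the first table but 0 and 5.35 TPM in the second, so its direction reversed. Cyc1-202, from the cytochrome c1 gene, had 3.09 and 16.4 TPM in the first table and 19.8 and 32.8 TPM in the second, higher in replicate 2 in both.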

How the data were processed

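Total RNA (300 ng per library, with ERCC spike-ins for ribosomal RNA reduced libraries, per the labels) from the left cerebral cortex was quantified by the submitters on mm10. Per the file headers, the first table of each library holds expected counts, TPM and the percent of the gene's TPM per transcript, in the column names of RSEM, with posterior SDs and interval bounds as deposited by the authors. The second table holds estimated counts and TPM as deposited by the authors, in the column names of kallisto. The alignment step, the versions of the tools and the interval level were not given in the sources used here. In the first table the effective length is 99 bases under the length, and CAST/EiJ variants are not in its reference. Nothing was rescaled, and no row was imputed.

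All 141767 transcript identifiers and biotypes matched GENCODE M21, which gave exons, start and stop codons and transcript sequences. Shares of a gene were computed from TPM over all its transcripts and differed from the deposited percent values by at most 0.410 points. A member was detected where both libraries reached a TPM of 1. Library ratios were log2(TPM + 1). A stop was placed by its bases against all coding transcripts of the gene. Computation was in Python 3.11.15 with pandas 2.3.3 and numpy 2.4.6, and figures were drawn with matplotlib 3.10.9. The classification was tested on made-up transcripts. A count of 0 allows up to 3 counts; this covers counting error only, and reads shared between transcripts add to it.

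Members and the 15 gene lists were chosen with earlier results of these data known, so the lists are descriptions and were not tested. Named members are the 15 of highest TPM detected throughout, the 15 of largest share at a gene TPM of at least 5, up to 4 of each list, those furthest apart between libraries or tables (5 each way) and the 3 of largest share in each stop class; the text gives those on which results turn, together with gene shares of list members. The 5 members apart between libraries in both tables, Slc4a7 and the genes that a list's count or contrast needed were chosen after their values were seen. Alternatives were the second table, other TPM thresholds and pseudocounts, leaving out a library, uncertain counts (posterior SD above 0.5 of the count) or incomplete models, and shares of expected counts. Some genes' values are not reported here.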

Additional observations from a re-analysis of the deposited data

Results flagged for a closer look

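A further 95 of the 7186 transcripts annotated for NMD belong to genes with no protein coding transcript and entered no comparison; they are given as data outside the main measurement. Of these, 37 (38.9%) had more than 3 expected counts in both libraries, above the limit that a count of 0 allows. The share was 41.4% over all annotated transcripts and 41.4% over the members, so it does not stand apart. Of the 95, 23 (24.2%) were detected by the first table and 48 (50.5%) by the second, against 26.8 and 32.2% of all transcripts. The highest in the first table was Gm20716-201, with 17.8 and 14.2 TPM in the first table and 12.4 and 11.0 TPM in the second.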

How the results depend on the processing

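The counts of members with at least 10% of their gene (1025) and leading it (199) stayed within 1.5 times under the second table, both other TPM thresholds, leaving out a library, uncertain counts or incomplete models, and by expected counts (830 and 182, an alternative chosen after seeing the data). So did the count of detected members (1658), except at a TPM threshold of 5, where it was 489. With 1 library left out, these counts ran from 1355 to 1368, from 286 to 289 and from 2005 to 2112. The pooled share (10.3%) was 12.6% in the second table, 9.13% without members of uncertain counts, 7.99% without incomplete models, 7.24% over expected counts and 10.2 to 10.4% with 1 library left out. The median share (4.85%) was 8.06% in the second table, 4.61% at a TPM threshold of 5, 2.52% over expected counts and 4.85 to 4.93% with 1 library left out. The library SD (0.44) and the count of members 2-fold apart (50) were 0.51 and 166 in the second table, 0.46 and 94 at a threshold of 0.5, 0.31 and 3 at 5, 0.38 and 21 without uncertain counts, and 0.57 and 133 with a pseudocount of 0.1. By stop class, the shares of shared, exonic and intronic stops were 0.970, 7.05 and 4.56% in the second table, 0.636, 5.43 and 1.92% without incomplete models, and 1.01 to 1.03%, 6.59 to 6.80% and 2.53 to 2.62% with 1 library left out. Leaving out models or uncertain counts lowers a share by construction, since fewer members are summed; for the other alternatives the cause was not tested. No paired analysis was possible because there was only 1 group. Depth and reads shared between transcripts both limit single members, of which 4036 have no base of their own; their separate parts were not tested.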
